A study of Homo sapiens with 8 samples.

Results

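Voltage-gated sodium and calcium channels are membrane proteins that open when a cell depolarises, and this group holds the genes of their subunits. The members were the protein-coding genes of the deposited table named SCN followed by a number and A or B, or starting with CACNA, CACNB or CACNG. The rule found 40 genes among 19903 protein-coding genes and 67060 gene rows in all. Of these, 38 are described. They comprise 19 genes of pore-forming subunits (9 sodium SCN-A and 10 calcium CACNA1 genes) and 19 of auxiliary subunits (3 sodium beta, 4 calcium alpha2delta, 4 calcium beta and 8 gamma genes). Counts, medians, class sums and shares below are over these 38. A further 11 rows with matching names are antisense or intronic RNAs and were not counted as members.

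RNA was sequenced from SH-SY5Y, an established human cell line that came from a neuroblastoma and is called a neuronal progenitor in the labels. Cells were grown to 80% confluence, given 0.5 ul of an adenovirus, and harvested 48 h later. In the ERRg group (4 libraries) the virus carried BioID-Flag-ERRg, the biotin ligase BioID joined to Flag-tagged estrogen-related receptor gamma, a nuclear receptor encoded by ESRRG. In the GFP group (4 libraries) it carried BioID-GFP-NLS, so both groups received a virus and a biotin ligase fusion. No uninfected cells are among the samples, and the promoter that drives the fusion is not stated in the labels. Whether replicates came from separate cultures is not said, and the p-values therefore reflect the spread of these libraries alone, which may be technical.

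The pore-forming subunit of a sodium or calcium channel is a single long protein with 4 homologous domains that sense voltage and line the pore. Auxiliary subunits bind it and set how many channels reach the membrane and how they gate. Sodium channels carry the upstroke of the action potential in neurons. Calcium channels turn depolarisation into calcium entry, which triggers transmitter release and gene expression. Gamma subunits belong to a family in which several members, the TARPs, accompany AMPA-type glutamate receptors rather than calcium channels.

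Reads assigned to genes numbered 27.7 to 35.5 M per library in GFP and 21.0 to 23.0 M in ERRg. Reads outside annotated exons were 16.2% to 24.2% of all reads in GFP and 45.5% to 48.3% in ERRg, so this share separated the groups without overlap and cannot be told apart from the treatment. By the chi-square of their counts, ERRg replicates 1 and 2 were the closest pair of libraries (2.9 per gene) and ERRg replicates 3 and 4 the next (5.02), against 9.87 to 41.2 for other pairs within a group. ESRRG, the delivered gene, lay between 711 and 888 CPM (reads per 1 M gene reads, scaled by TMM factors) in ERRg and between 32.7 and 37.1 CPM in GFP. Of 10 sympathetic neuroblast markers, 8 averaged at least 1 CPM over the libraries. TH and CHGA were listed at 0, which may not mean that the RNA is absent. The summed level of the 10 markers was 763 to 866 CPM in GFP and 549 to 593 CPM in ERRg. All 5 fibroblast markers were present, at a summed 1560 to 1750 CPM in GFP and 889 to 985 CPM in ERRg. The 4 neural progenitor markers (NES, MSI1, SOX2 and PAX6, of which PAX6 averaged under 1 CPM) summed to 594 to 791 CPM in GFP and 256 to 293 CPM in ERRg. The 4 heart markers, with MYH7 at 0, summed to 1.81 to 3.31 CPM in GFP and 0.977 to 1.56 CPM in ERRg. The 5 Schwann and glial markers summed to 5.72 to 6.53 CPM in GFP and 4.1 to 5.08 CPM in ERRg. The 6 skeletal muscle markers overlapped between the groups, at 0.412 to 0.756 CPM in GFP and 0.325 to 0.575 CPM in ERRg. All of these lists but the skeletal muscle one were lower in ERRg without overlap, and their part in the channel results was not tested.

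Channel genes changed in both directions, in shares near those of coding genes at large. Of the 38 genes, 24 had enough reads to be tested (9 pore-forming, 15 auxiliary). In ERRg 7 were higher and 12 lower, and 5 did not pass the test (edgeR quasi-likelihood test, Benjamini-Hochberg adjusted p under 0.05 over all 21993 genes tested). Among all genes tested 38.8% were higher and 35.9% lower, and among the 13433 coding genes tested 29.0% were higher and 50.6% lower. As a median, the log2 fold change (ERRg over GFP) was -0.28 over the 24 members, -0.30 over coding genes and 0.09 over all genes. Of the pore-forming genes 2 were higher and 3 lower (median -0.21), and of the auxiliary genes 5 were higher and 9 lower (median -0.67). With upper-quartile factors, which put the median of all genes at 0.40 instead of 0.09, 9 members were higher and 10 lower, beside 40.1% and 39.7% of coding genes. With library totals, which put it at 0.50, 9 were higher and 8 lower, beside 43.6% and 35.8% of coding genes.

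A second fit was made because, among coding genes, the fold change went with transcript GC content (Pearson r = -0.65, Spearman rho = -0.70, over 13426 genes, which share the same 8 libraries). It added offsets per library for GC content, transcript length and gene span over 13413 coding genes. With these offsets 8 of the 24 channel genes were higher and 10 lower (median -0.27), against 30.7% and 41.4% of all coding genes in that fit (median -0.07). For pore-forming genes the counts were then 2 higher and 3 lower, and for auxiliary genes 6 higher and 7 lower. Each fold change is therefore given from both fits, first with TMM scaling alone.

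**Figure D1:**
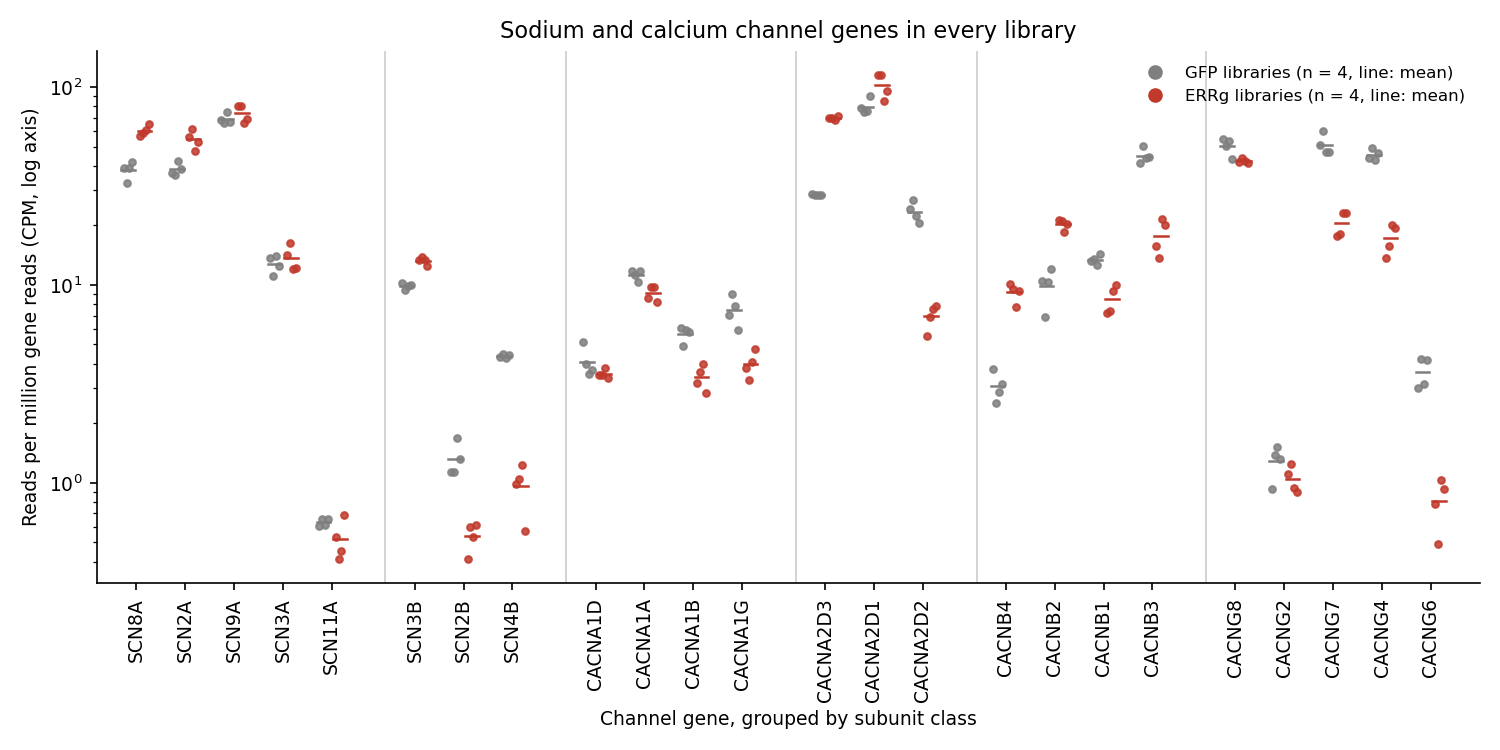
Level of the 24 tested channel genes in every library (vertical axis, CPM on a log scale), grouped by subunit class, with grey points for GFP, red points for ERRg and a line at the mean of 4. CACNA2D3 and CACNB4 lie higher in all ERRg libraries, CACNA2D2, CACNG7 and SCN4B lie lower in all of them, and SCN9A and SCN3A overlap between the groups.

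Among the sodium channel pores, SCN8A rose in both fits, and SCN9A, the pore gene with the highest level per kilobase, did not pass the test with TMM alone. SCN8A encodes the main channel of axon initial segments and nodes of Ranvier. In GFP replicates 1 to 4 SCN8A was at 39.1, 32.6, 38.8 and 41.8 CPM, and in ERRg replicates 1 to 4 at 56.6, 58.8, 60.6 and 64.9 CPM. All ERRg libraries lay above all GFP libraries. SCN8A rose with TMM alone (log2 fold change 0.66, SE 0.09, edgeR adjusted p = 2.43e-06) and was also higher with the offsets (0.53, SE 0.07, adjusted p = 1.01e-06).

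SCN2A, an axonal channel of early brain development, was called in opposite directions by the fits. SCN2A had 36.6, 35.8, 42.2 and 38.6 CPM in GFP replicates 1 to 4, and 56.0, 61.6, 47.7 and 53.0 CPM in ERRg replicates 1 to 4. The lowest ERRg library lay above the highest GFP library. SCN2A rose with TMM alone (log2 fold change 0.51, SE 0.10, edgeR adjusted p = 7.81e-05) and was lower with the offsets (-0.31, SE 0.06, adjusted p = 1.41e-04). Its transcript has 37.6% GC, among the lowest of the channel genes. SCN9A encodes the channel of sympathetic and pain-sensing neurons. SCN9A read 67.9, 65.5, 75.1 and 66.6 CPM in GFP replicates 1 to 4 and 80.2, 79.9, 66.0 and 68.5 CPM in ERRg replicates 1 to 4. ERRg replicates 3 and 4 lay inside the GFP range and replicates 1 and 2 above it. SCN9A did not pass the test with TMM alone (log2 fold change 0.10, SE 0.09, edgeR adjusted p = 0.336) and was lower with the offsets (-0.62, SE 0.05, adjusted p = 5.87e-09). The level of SCN3A was 13.7, 11.1, 14.0 and 12.5 CPM in GFP replicates 1 to 4 and 14.2, 16.2, 12.1 and 12.2 CPM in ERRg replicates 1 to 4. SCN3A, a channel mainly of the developing brain, thus overlapped between the groups. SCN3A did not pass the test with TMM alone (log2 fold change 0.09, SE 0.12, edgeR adjusted p = 0.481) and was lower with the offsets (-0.54, SE 0.08, adjusted p = 1.13e-05). With upper-quartile factors SCN9A and SCN3A were called higher (0.41 and 0.40). SCN11A, a channel of pain-sensing neurons, averaged 0.633 CPM in GFP and 0.523 CPM in ERRg and was called in neither fit (-0.28, edgeR adjusted p = 0.411, and -0.48 with the offsets, adjusted p = 0.133).

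SCN2A, SCN3A, SCN9A, SCN1A and SCN7A lie in 1 cluster on chromosome 2 (GRCh38). SCN3A spans 165087522 to 165204067 on the minus strand, SCN2A 165194993 to 165392310 on the plus strand, and SCN9A 166195185 to 166376001 on the minus strand. The annotated spans of SCN3A and SCN2A overlap at their starts, on opposite strands. In both fits SCN2A had the highest log2 fold change of the 3 tested genes of the cluster, a difference that was not tested itself. SCN1A, the cluster's other large neuronal channel, had 3 to 8 reads in each GFP library and 1 to 5 in each ERRg library. SCN1A-AS1, an antisense RNA that reaches into the spans of SCN1A and SCN9A, was higher in ERRg (log2 fold change 1.08, SE 0.18, edgeR adjusted p = 1.38e-05). The strand setting of the counting is not given in the sources used here, so reads of overlapping genes on opposite strands may be mixed.

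Sodium beta subunits, single-pass proteins that modulate gating and act in cell adhesion, were split. SCN3B rose in both fits and SCN4B, which forms a disulphide link with the pore, fell in both. SCN3B had 10.2, 9.45, 9.93 and 10.0 CPM in GFP replicates 1 to 4, and 13.4, 13.9, 13.3 and 12.4 CPM in ERRg replicates 1 to 4. The 4 ERRg libraries were all above the GFP libraries. SCN3B rose with TMM alone (log2 fold change 0.42, SE 0.10, edgeR adjusted p = 9.72e-04) and was also higher with the offsets (0.75, SE 0.08, adjusted p = 2.66e-07). SCN4B read 4.32, 4.45, 4.28 and 4.40 CPM in GFP replicates 1 to 4 and 0.987, 1.05, 1.23 and 0.569 CPM in ERRg replicates 1 to 4. No GFP library was below 4.28 CPM and no ERRg library above 1.23 CPM. SCN4B fell with TMM alone (log2 fold change -2.18, SE 0.20, edgeR adjusted p = 5.27e-09) and was also lower with the offsets (-1.41, SE 0.19, adjusted p = 2.48e-06). SCN2B, the other beta subunit linked by a disulphide bond, lies next to SCN4B on chromosome 11 (SCN4B 118133377 to 118152888, SCN2B 118161951 to 118176673). In GFP replicates 1 to 4 SCN2B was at 1.14, 1.14, 1.69 and 1.32 CPM, and in ERRg replicates 1 to 4 at 0.411, 0.601, 0.534 and 0.61 CPM. These values are low and did not overlap. SCN2B fell with TMM alone (log2 fold change -1.28, SE 0.27, edgeR adjusted p = 2.37e-04) but was not called once the offsets were added (-0.55, SE 0.26, adjusted p = 0.0617).

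The calcium channel pores that could be tested were lower or not called with TMM alone. CACNA1B (N-type) and CACNA1G (T-type, opened by small depolarisations) fell, CACNA1A (P/Q-type) fell by less, and CACNA1D (L-type) did not pass the test. CACNA1B had 6.07, 4.93, 5.90 and 5.80 CPM in GFP replicates 1 to 4, and 3.21, 3.61, 3.98 and 2.85 CPM in ERRg replicates 1 to 4. The groups did not overlap. CACNA1B fell with TMM alone (log2 fold change -0.73, SE 0.15, edgeR adjusted p = 1.74e-04) but was not called once the offsets were added (-0.20, SE 0.14, adjusted p = 0.202). With library totals CACNA1B was not called either (-0.33, adjusted p = 0.0632). CACNA1G read 7.03, 8.97, 7.84 and 5.93 CPM in GFP replicates 1 to 4 and 3.79, 3.31, 4.06 and 4.72 CPM in ERRg replicates 1 to 4. The lowest GFP library lay above the highest ERRg library. CACNA1G fell with TMM alone (log2 fold change -0.91, SE 0.15, edgeR adjusted p = 2.01e-05) but was not called once the offsets were added (-0.09, SE 0.13, adjusted p = 0.542). The level of CACNA1A was 11.8, 11.2, 10.3 and 11.7 CPM in GFP replicates 1 to 4 and 8.60, 9.80, 9.77 and 8.21 CPM in ERRg replicates 1 to 4. The CACNA1A groups did not overlap. CACNA1A fell with TMM alone (log2 fold change -0.31, SE 0.11, edgeR adjusted p = 0.0177) and was higher with the offsets (0.26, SE 0.10, adjusted p = 0.0238). With TMM alone the CACNA1A call was lost without ERRg replicate 4 (-0.27, adjusted p = 0.0546) with upper-quartile factors (adjusted p = 0.978) and with a filter of at least 1 CPM in 4 libraries (-0.19, adjusted p = 0.111). CACNA1D had 5.14, 3.97, 3.56 and 3.70 CPM in GFP replicates 1 to 4, and 3.50, 3.49, 3.82 and 3.37 CPM in ERRg replicates 1 to 4. The 4 ERRg values lay within or just below the GFP range. CACNA1D did not pass the test with TMM alone (log2 fold change -0.21, SE 0.16, edgeR adjusted p = 0.232) or with the offsets (-0.26, SE 0.14, adjusted p = 0.101). With the offsets, 1 of these 4 pores was therefore higher and 0 lower, against 0 higher and 3 lower with TMM alone. The 3 called lower have 58.0% to 60.5% GC, and of coding genes at or above 50% GC 80.3% were lower with TMM alone. With the offsets 30.7% of all coding genes were higher and 41.4% lower.

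The other 6 calcium pores were not tested for want of reads. CACNA1H, a T-type pore, had 11, 6, 4 and 5 reads in the ERRg libraries and 1 read in all GFP libraries together, in replicate 3. The ratio of ERRg over GFP, corrected for library size, was 28.4 (95% exact interval 4.67 to 1160, which covers counting error only). Without the low-count filter CACNA1H rose, with a log2 fold change of 4.21 (SE 1.02) at an edgeR adjusted p of 1.38e-04. Overlapping genes on the opposite strand had 3 (TPSG1), 4 (ENSG00000259910) and 2 reads (ENSG00000260403) in ERRg and 0 in GFP. ENSG00000261294 had 0 in both groups. Reads outside exons were more frequent in ERRg, and their part in the CACNA1H reads was not tested. CACNA1E had 7 reads in all, CACNA1I 8, CACNA1F 7 and CACNA1S 4. CACNA1C, the L-type pore of heart and brain, was listed at 0 in all libraries. It sits on chromosome 12 in a run of 4 coding genes at 0 (CACNA2D4, LRTM2, DCP1B and CACNA1C), so its 0 may not mean that the RNA is absent.

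Of the untested sodium pores, SCN7A had 53 reads in GFP and 22 in ERRg, and without the filter it fell (-1.17 on the log2 scale, SE 0.47, edgeR adjusted p = 0.0315). SCN4A, the skeletal muscle channel, had 1 read in GFP and 2 in ERRg. SCN10A, a channel of pain-sensing neurons, was listed at 0 while its neighbour SCN11A had 121 reads. A count of 0 allows a level of up to 0.103 to 0.123 CPM in these libraries (3 reads, counting error only). In the table as a whole 2821 of 19903 coding genes were at 0.

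The alpha2delta subunits, extracellular proteins anchored to the membrane that carry calcium channels to the cell surface, showed the widest opposition within a class. CACNA2D3 rose and CACNA2D2 fell in each of 8 fits that are named below. With the share of reads outside exons as a covariate, a fit not among the 8, neither was called (log2 fold changes 1.22 and -0.68). That covariate and the group nearly coincide. CACNA2D3 read 28.8, 28.4, 28.6 and 28.6 CPM in GFP replicates 1 to 4 and 69.9, 70.1, 67.9 and 71.7 CPM in ERRg replicates 1 to 4. The GFP libraries lay between 28.4 and 28.8 CPM, and every ERRg library was above them. CACNA2D3 rose with TMM alone (log2 fold change 1.29, SE 0.08, edgeR adjusted p = 1.04e-10) and was also higher with the offsets (1.29, SE 0.05, adjusted p = 4.11e-13). In GFP replicates 1 to 4 CACNA2D2 was at 24.1, 27.0, 22.2 and 20.5 CPM, and in ERRg replicates 1 to 4 at 5.51, 6.91, 7.55 and 7.85 CPM. No ERRg library reached the GFP range. CACNA2D2 fell with TMM alone (log2 fold change -1.76, SE 0.12, edgeR adjusted p = 2.07e-10) and was also lower with the offsets (-1.08, SE 0.09, adjusted p = 5.01e-09). CACNA2D1, which like CACNA2D2 binds the drug gabapentin, had the highest level of the class in GFP. CACNA2D1 had 78.2, 74.7, 75.5 and 90.1 CPM in GFP replicates 1 to 4, and 115, 115, 85.4 and 95.5 CPM in ERRg replicates 1 to 4. The groups overlapped, because ERRg replicate 3 lay below GFP replicate 4. CACNA2D1 rose with TMM alone (log2 fold change 0.37, SE 0.10, edgeR adjusted p = 0.0032) and was lower with the offsets (-0.42, SE 0.05, adjusted p = 8.11e-07). With TMM alone its call was lost without GFP replicate 1 (0.28, adjusted p = 0.0564) or GFP replicate 3 (0.26, adjusted p = 0.0710). CACNA2D4, a subunit known from the retina, was at 0 within the run of zeros on chromosome 12.

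The promoters of CACNA2D3 and CACNA2D2 are shown because these genes moved furthest apart while encoding subunits of one class. Both windows are from RefSeq (GRCh38.p14) and run from 250 bases before to 50 bases after the annotated start, with CG dinucleotides in capitals. CACNA2D3 is on the plus strand at chr3:54122302-54122601, with 79.0% GC and 37 CG dinucleotides. CACNA2D2 is on the minus strand at chr3:50504195-50504494, with 60.3% GC and 5 CG dinucleotides, and a second annotated CACNA2D2 window has 39. Over all 35116 windows the median was 58.7% GC and 14 CG dinucleotides.
CACNA2D3: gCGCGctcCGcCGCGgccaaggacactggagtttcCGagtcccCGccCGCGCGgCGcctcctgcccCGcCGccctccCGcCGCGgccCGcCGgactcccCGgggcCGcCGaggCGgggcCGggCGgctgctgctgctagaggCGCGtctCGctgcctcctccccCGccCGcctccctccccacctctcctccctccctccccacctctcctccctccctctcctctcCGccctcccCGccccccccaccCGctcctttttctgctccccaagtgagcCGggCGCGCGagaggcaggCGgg
CACNA2D2: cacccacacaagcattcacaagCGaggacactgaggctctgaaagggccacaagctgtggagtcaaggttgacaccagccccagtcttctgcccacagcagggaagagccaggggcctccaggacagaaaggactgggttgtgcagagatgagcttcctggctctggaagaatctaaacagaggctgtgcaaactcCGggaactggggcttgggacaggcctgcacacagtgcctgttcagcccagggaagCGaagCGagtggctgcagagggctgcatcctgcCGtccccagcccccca

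CACNA2D3 is a long gene (952 kb, chromosome 3 from 54122547 to 55074557, plus strand), and other genes lie within its span on the opposite strand. LRTM1, a coding gene 796 kb from its first base, had 13, 11, 17 and 19 reads in GFP and 132, 135, 127 and 173 in ERRg. LRTM1 rose by a log2 fold change of 3.35 (SE 0.22) with an edgeR adjusted p of 1.05e-10, and by 3.68 with the offsets. The antisense RNA CACNA2D3-AS1 had a log2 fold change of 3.06 (SE 0.21) and the intronic RNA ESRG of 2.78 (SE 0.27), with edgeR adjusted p of 1.59e-10 and 1.29e-08. All 3 were higher than CACNA2D3 itself on the log2 fold change scale, at much lower levels (0.443 to 0.602 CPM in GFP). Reads outside exons were also more frequent in ERRg, as given above, and their part in these values was not tested. Across the members' spans 61 genes overlap a member, counting SCN2A and SCN3A, members that overlap each other. Of the 61, 16 were tested, in the spans of 9 tested members and of SCN1A, which was not tested itself.

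**Figure D2:**
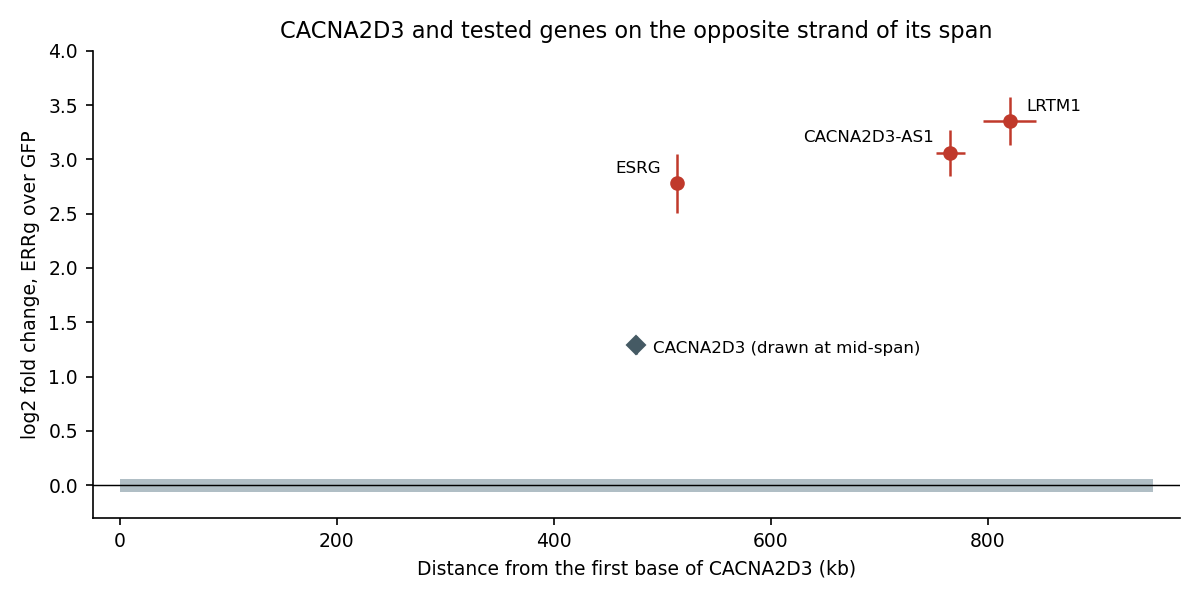
Log2 fold change, ERRg over GFP, of CACNA2D3 (diamond, drawn at mid-span) and of the tested genes on the opposite strand within its span (red), against distance in kb from its first base. Vertical bars are standard errors, horizontal bars the extent of each gene and the grey band the span of CACNA2D3. ESRG, CACNA2D3-AS1 and LRTM1 lie between 2.78 and 3.35, above CACNA2D3 at 1.29.

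Calcium channel beta subunits are cytoplasmic proteins that bind the pore directly and raise its surface level. CACNB4 and CACNB2 rose in both fits and CACNB3 fell in both. CACNB4 read 3.75, 2.52, 2.88 and 3.17 CPM in GFP replicates 1 to 4 and 10.1, 9.58, 7.72 and 9.35 CPM in ERRg replicates 1 to 4. All ERRg libraries exceeded all GFP libraries. CACNB4 rose with TMM alone (log2 fold change 1.58, SE 0.15, edgeR adjusted p = 6.21e-09) and was also higher with the offsets (0.75, SE 0.12, adjusted p = 1.52e-05). The level of CACNB2 was 10.5, 6.87, 10.3 and 12.0 CPM in GFP replicates 1 to 4 and 21.4, 21.0, 18.6 and 20.3 CPM in ERRg replicates 1 to 4. GFP replicate 2 was the lowest of its group, and no ERRg library was below 18.6 CPM. CACNB2 rose with TMM alone (log2 fold change 1.04, SE 0.13, edgeR adjusted p = 5.60e-07) and was also higher with the offsets (0.52, SE 0.10, adjusted p = 1.98e-04). CACNB3 had 41.4, 50.6, 43.6 and 44.2 CPM in GFP replicates 1 to 4, and 15.8, 13.7, 21.5 and 20.0 CPM in ERRg replicates 1 to 4. No ERRg library exceeded 21.5 CPM and no GFP library was below 41.4 CPM. CACNB3 fell with TMM alone (log2 fold change -1.34, SE 0.12, edgeR adjusted p = 4.38e-09) and was also lower with the offsets (-0.31, SE 0.07, adjusted p = 3.53e-04). CACNB1 read 13.2, 13.5, 12.6 and 14.4 CPM in GFP replicates 1 to 4 and 7.20, 7.40, 9.28 and 10.0 CPM in ERRg replicates 1 to 4. CACNB1, the beta subunit of skeletal muscle that other tissues also make, did not overlap between the groups. CACNB1 fell with TMM alone (log2 fold change -0.67, SE 0.12, edgeR adjusted p = 5.41e-05) and was higher with the offsets (0.23, SE 0.09, adjusted p = 0.0274). Its sign thus differed between the fits, and with library totals it was not called (-0.26, adjusted p = 0.059). Antisense and other non-coding RNAs within CACNB2 were higher too, the largest of them (ENSG00000235020) by a log2 fold change of 1.79 (SE 0.17, edgeR adjusted p = 7.30e-09).

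Of the 5 gamma subunit genes tested, 4 fell with TMM alone, and 3 of them stayed lower with the offsets. All 5 have at least 50% GC, and of such coding genes 80.3% were lower with TMM alone. With the offsets 41.4% of all coding genes were lower. CACNG4 is a TARP that promotes AMPA receptor trafficking, CACNG7 is a member of the second TARP subgroup, and CACNG6 is closest to the skeletal muscle gamma subunit. In GFP replicates 1 to 4 CACNG4 was at 43.7, 48.9, 43.0 and 46.4 CPM, and in ERRg replicates 1 to 4 at 13.6, 15.7, 20.0 and 19.4 CPM. CACNG4 fell with TMM alone (log2 fold change -1.41, SE 0.11, edgeR adjusted p = 8.56e-10) and was also lower with the offsets (-0.65, SE 0.06, adjusted p = 4.56e-08). CACNG7 had 50.8, 59.6, 46.9 and 47.1 CPM in GFP replicates 1 to 4, and 17.7, 18.0, 23.2 and 23.1 CPM in ERRg replicates 1 to 4. In both genes every GFP library was above every ERRg library. CACNG7 fell with TMM alone (log2 fold change -1.32, SE 0.11, edgeR adjusted p = 1.83e-09) and was also lower with the offsets (-0.27, SE 0.06, adjusted p = 4.27e-04). CACNG6 read 3.0, 4.21, 3.17 and 4.16 CPM in GFP replicates 1 to 4 and 0.782, 0.488, 1.03 and 0.935 CPM in ERRg replicates 1 to 4. The groups did not overlap, and the ERRg values rested on 13 to 25 reads. CACNG6 fell with TMM alone (log2 fold change -2.17, SE 0.23, edgeR adjusted p = 3.51e-08) and was also lower with the offsets (-1.09, SE 0.20, adjusted p = 8.06e-05). The level of CACNG8 was 54.4, 50.2, 53.4 and 43.1 CPM in GFP replicates 1 to 4 and 42.0, 43.8, 42.1 and 41.1 CPM in ERRg replicates 1 to 4. CACNG8, a TARP of the forebrain, overlapped between the groups because GFP replicate 4 lay below ERRg replicate 2. CACNG8 fell with TMM alone (log2 fold change -0.25, SE 0.09, edgeR adjusted p = 0.0188) and was higher with the offsets (0.46, SE 0.09, adjusted p = 1.08e-04). With upper-quartile factors it was not called (adjusted p = 0.591), nor with a filter of at least 1 CPM in 4 libraries (-0.14, adjusted p = 0.168). CACNG2 had 0.928, 1.38, 1.51 and 1.32 CPM in GFP replicates 1 to 4, and 1.11, 1.24, 0.944 and 0.894 CPM in ERRg replicates 1 to 4. The CACNG2 groups overlapped. CACNG2 did not pass the test with TMM alone (log2 fold change -0.29, SE 0.24, edgeR adjusted p = 0.279) or with the offsets (0.05, SE 0.23, adjusted p = 0.857). CACNG2, the TARP known as stargazin, was thus called in neither fit.

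CACNG7, CACNG8 and CACNG6 are neighbours on chromosome 19, at 53909335 to 53943941, 53963040 to 53990215 and 53992288 to 54012669, all on the plus strand. All 3 were called lower with TMM alone, with log2 fold changes of -1.32, -0.25 and -2.17. With the offsets these were -0.27, 0.46 and -1.09, and CACNG8 was called higher. CACNG4 lies on chromosome 17 (66964910 to 67033398) between CACNG5 and CACNG1. CACNG5 had 27 reads in GFP and 14 in ERRg, and CACNG1, the skeletal muscle gamma subunit, 14 in each group. CACNG3, a TARP, was listed at 0, while of its neighbours PRKCB had 3 reads and RBBP6 13316.

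**Figure D3:**
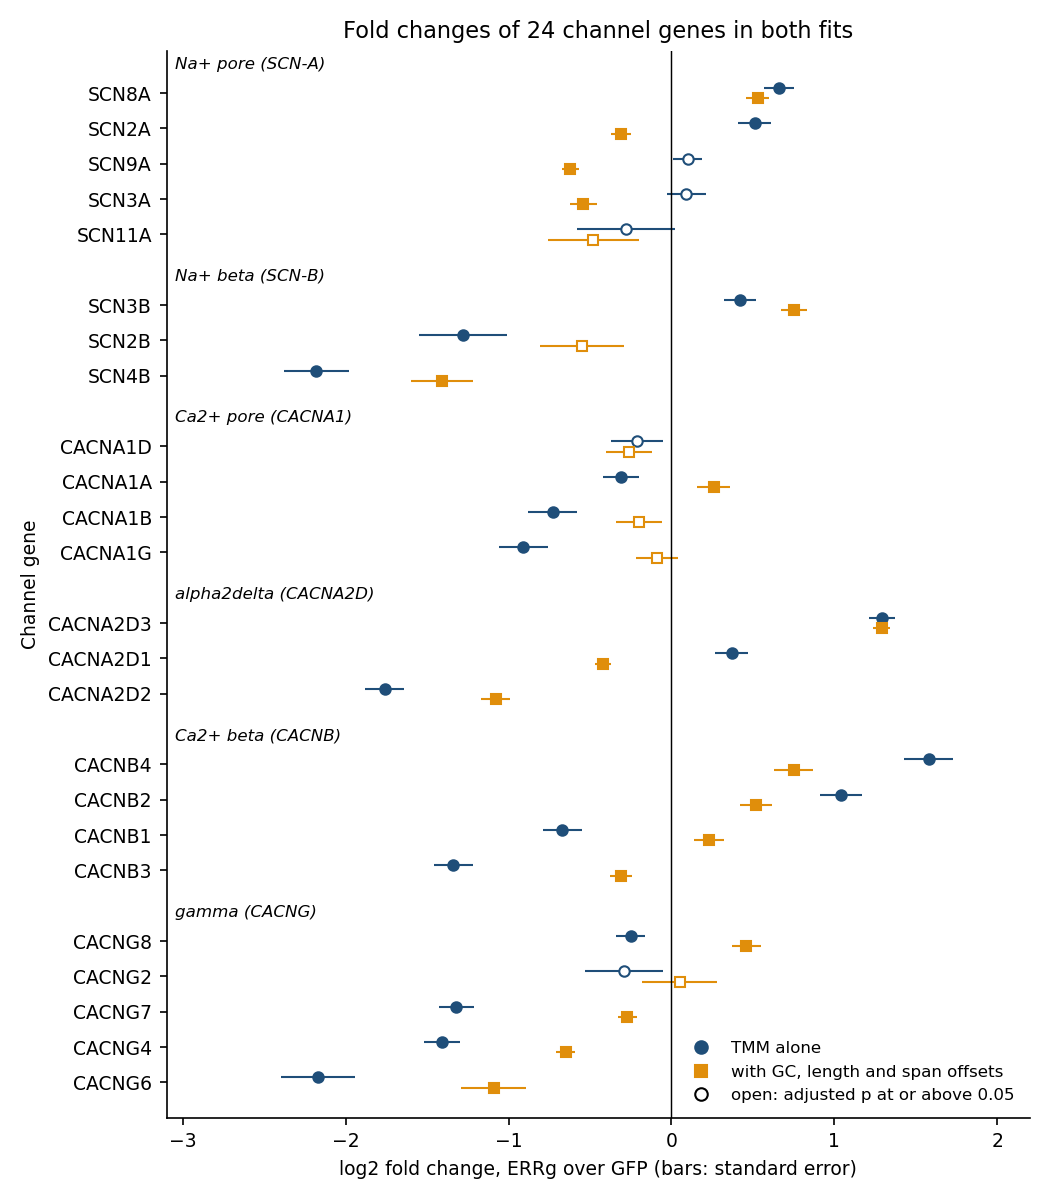
Log2 fold change, ERRg over GFP, of the 24 tested channel genes with TMM alone (blue circles) and with the 3 offsets (orange squares), grouped by class. Bars are standard errors and open symbols have an adjusted p at or above 0.05. CACNA2D3 stays at 1.29 in both fits, while CACNA2D1, SCN2A, CACNA1A, CACNB1 and CACNG8 have filled symbols on opposite sides of 0.

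Over the 24 tested members, 5 were called higher in both fits (CACNA2D3, CACNB2, CACNB4, SCN3B and SCN8A). Another 6 were called lower in both (CACNA2D2, CACNB3, CACNG4, CACNG6, CACNG7 and SCN4B). The same 5 and 6 genes were called in the same direction in each of 8 fits: TMM, both offset fits, upper-quartile factors, library totals, DESeq2 size factors, the DESeq2 Wald test and limma-voom. Of these 11 genes, SCN8A encodes a pore and the other 10 encode auxiliary subunits. With TMM alone 29.0% of coding genes tested were higher and 50.6% lower, and with the offsets 30.7% and 41.4%. How many coding genes were called alike in both fits, or in all 8, was not counted. The 8 fits leave out the one with the share of reads outside exons as a covariate, which called no member. CACNA2D1 and SCN2A turned from higher to lower with the offsets, and CACNA1A, CACNB1 and CACNG8 from lower to higher. CACNA1B, CACNA1G and SCN2B were called with TMM alone, SCN3A and SCN9A with the offsets alone, and CACNA1D, CACNG2 and SCN11A in neither. Against a log2 fold change of 1, 2 auxiliary genes were higher (CACNA2D3 and CACNB4), and 6 were lower (CACNA2D2, CACNB3, CACNG4, CACNG6, CACNG7 and SCN4B). Among coding genes tested the shares were 2.93% higher and 15.8% lower. That edgeR test called 0 pore-forming genes higher and 0 lower, also at an unadjusted p under 0.05.

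Transcript GC content divided the calls made with TMM alone. Of the 11 tested members below 50% GC, 7 were higher and 0 lower, and of the 13 at or above 50%, 12 were lower and 0 higher. Coding genes at large were divided in the same direction, with 47.1% higher and 27.2% lower below 50% GC and 5.89% higher and 80.3% lower at or above it. The 50% line was chosen after the values were seen. Across the 24 members the log2 fold change had a Pearson r of -0.77 and a Spearman rho of -0.79 with GC content, beside -0.65 and -0.70 over coding genes. With the offsets the members had -0.23 and -0.17. A weaker correlation was built in there, since the offsets were fitted on GC content over coding genes that include these members. They also take out any real difference between the groups that goes with GC content. All these correlations are descriptions, since the members share the same 8 libraries. The tested pore-forming genes had a median GC content of 47.0% and a median span of 197 kb. The auxiliary genes had 55.0% and 34.6 kb, and all coding genes tested 48.0% and 34.9 kb. The pore-forming and auxiliary genes thus had different median GC content and span, and their counts were not compared by a test.

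**Figure D4:**
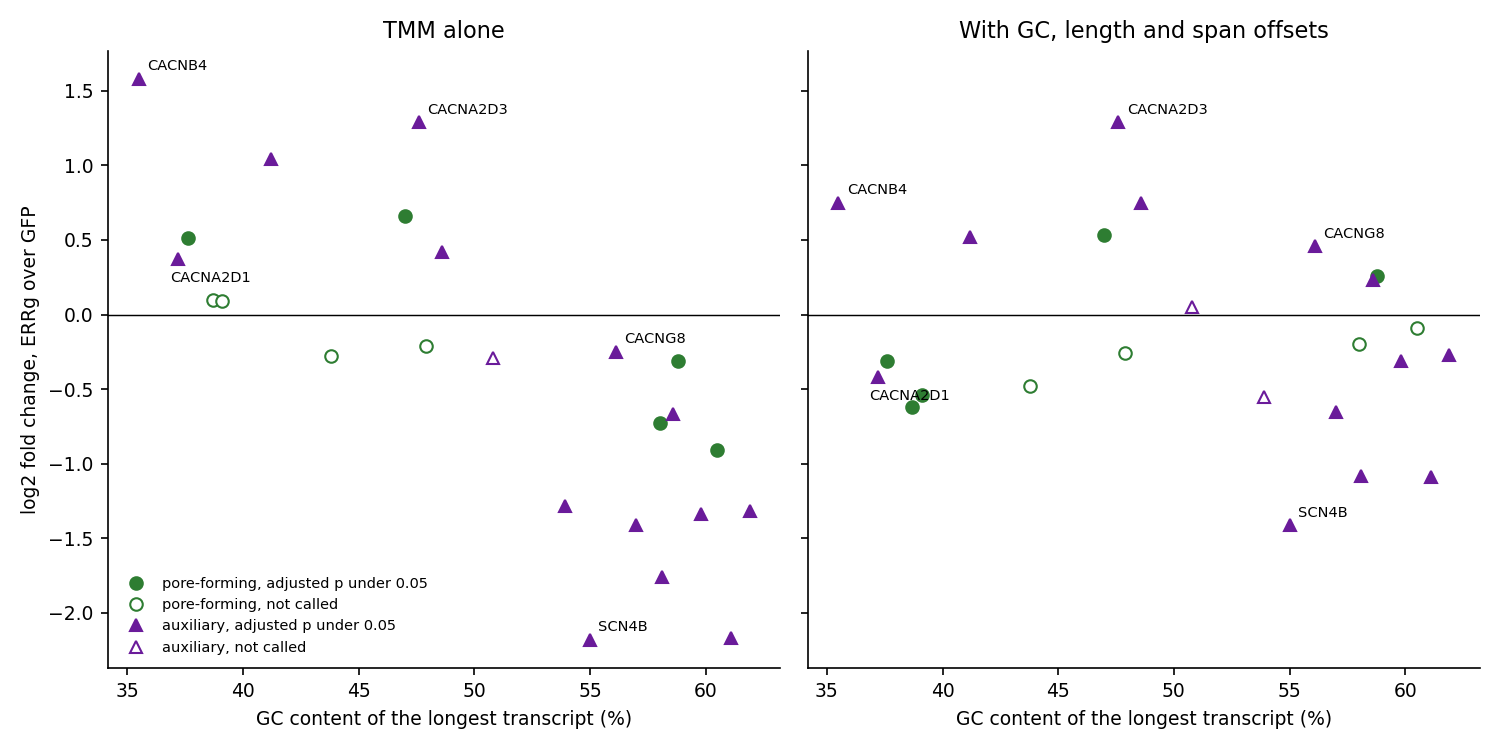
Log2 fold change of the 24 tested members (vertical axis) against the GC content of the longest transcript (horizontal axis, %), with TMM alone on the left and with the offsets on the right, for pore-forming (circles) and auxiliary (triangles) genes. With TMM alone each gene called higher lies below 50% GC and each gene called lower above it, and with the offsets called genes lie on both sides of 0 across the range.

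Levels of different genes were compared per kilobase, as CPM per kb of all annotated exon bases of the gene. These CPM were scaled by TMM without the offsets, so differences in sums and shares between the groups hold for that scaling. Sums with the offsets were not computed. The alpha2delta class summed to 18.7 ± 0.557 CPM per kb in GFP and 27.5 ± 1.69 CPM per kb in ERRg (SD, n = 4 each). CACNA2D3 made up 32.8% ± 0.958 of that level in GFP and 54.6% ± 2.90 in ERRg, while CACNA2D2 made up 19.9% ± 2.55 and 4.03% ± 0.778. With the offsets CACNA2D3 was higher (log2 fold change 1.29), and CACNA2D1 and CACNA2D2 were lower (-0.42 and -1.08). Calcium beta subunits summed to 9.37 ± 0.417 CPM per kb and 6.20 ± 0.56 CPM per kb. CACNB3 held 67.0% ± 3.62 of it in GFP and 39.7% ± 4.83 in ERRg, and CACNB2 11.9% ± 2.76 and 37.0% ± 5.19. In every ERRg library the CACNB2 share was above that of every GFP library. Sodium beta subunits summed to 2.04 ± 0.0488 CPM per kb and 1.66 ± 0.104 CPM per kb, with SCN3B at 51.1% ± 1.24 and 84.3% ± 1.99 and SCN4B at 37.8% ± 1.49 and 10.1% ± 2.55.

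Gamma subunits had the largest sum per kilobase in GFP, 40.1 ± 2.87 CPM per kb, and 18.2 ± 1.96 CPM per kb in ERRg. CACNG7 was the leading gamma gene in both groups (45.4% ± 2.02 and 40.1% ± 2.02), and the CACNG8 share went from 14.4% ± 1.75 to 26.8% ± 3.26. Sodium pores summed to 10.6 ± 0.669 CPM per kb in GFP and 13.2 ± 0.819 CPM per kb in ERRg. With the offsets SCN8A was higher (log2 fold change 0.53), while SCN9A, SCN2A and SCN3A were lower (-0.62, -0.31 and -0.54). The higher sum in ERRg was computed with TMM scaling and not with the offsets. With upper-quartile factors SCN8A, SCN2A, SCN9A and SCN3A were all called higher (log2 fold changes 0.96, 0.82, 0.41 and 0.40). SCN9A led in both groups (47.1% ± 1.54 and 40.6% ± 2.02), followed by SCN8A (24.0% ± 1.78 and 30.7% ± 3.18), SCN2A and SCN3A. With the longest transcript as length, SCN8A and SCN2A did not differ beyond their spread in GFP (21.7% ± 1.66 and 21.6% ± 0.618). By exon length calcium pores had the smallest sum, 1.81 ± 0.117 CPM per kb in GFP and 1.18 ± 0.0625 CPM per kb in ERRg. Which of them led depended on the length used, since CACNA1G led by exon length (42.1% ± 5.06 in GFP) and CACNA1A by the longest transcript (39.9% ± 2.81 in GFP). The annotated exons of CACNA1A cover 43159 bases and its longest transcript 8665, so its level per kilobase is uncertain. In a bulk sample, fewer cells that make a transcript and less of it per cell cannot be told apart.

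**Figure D5:**
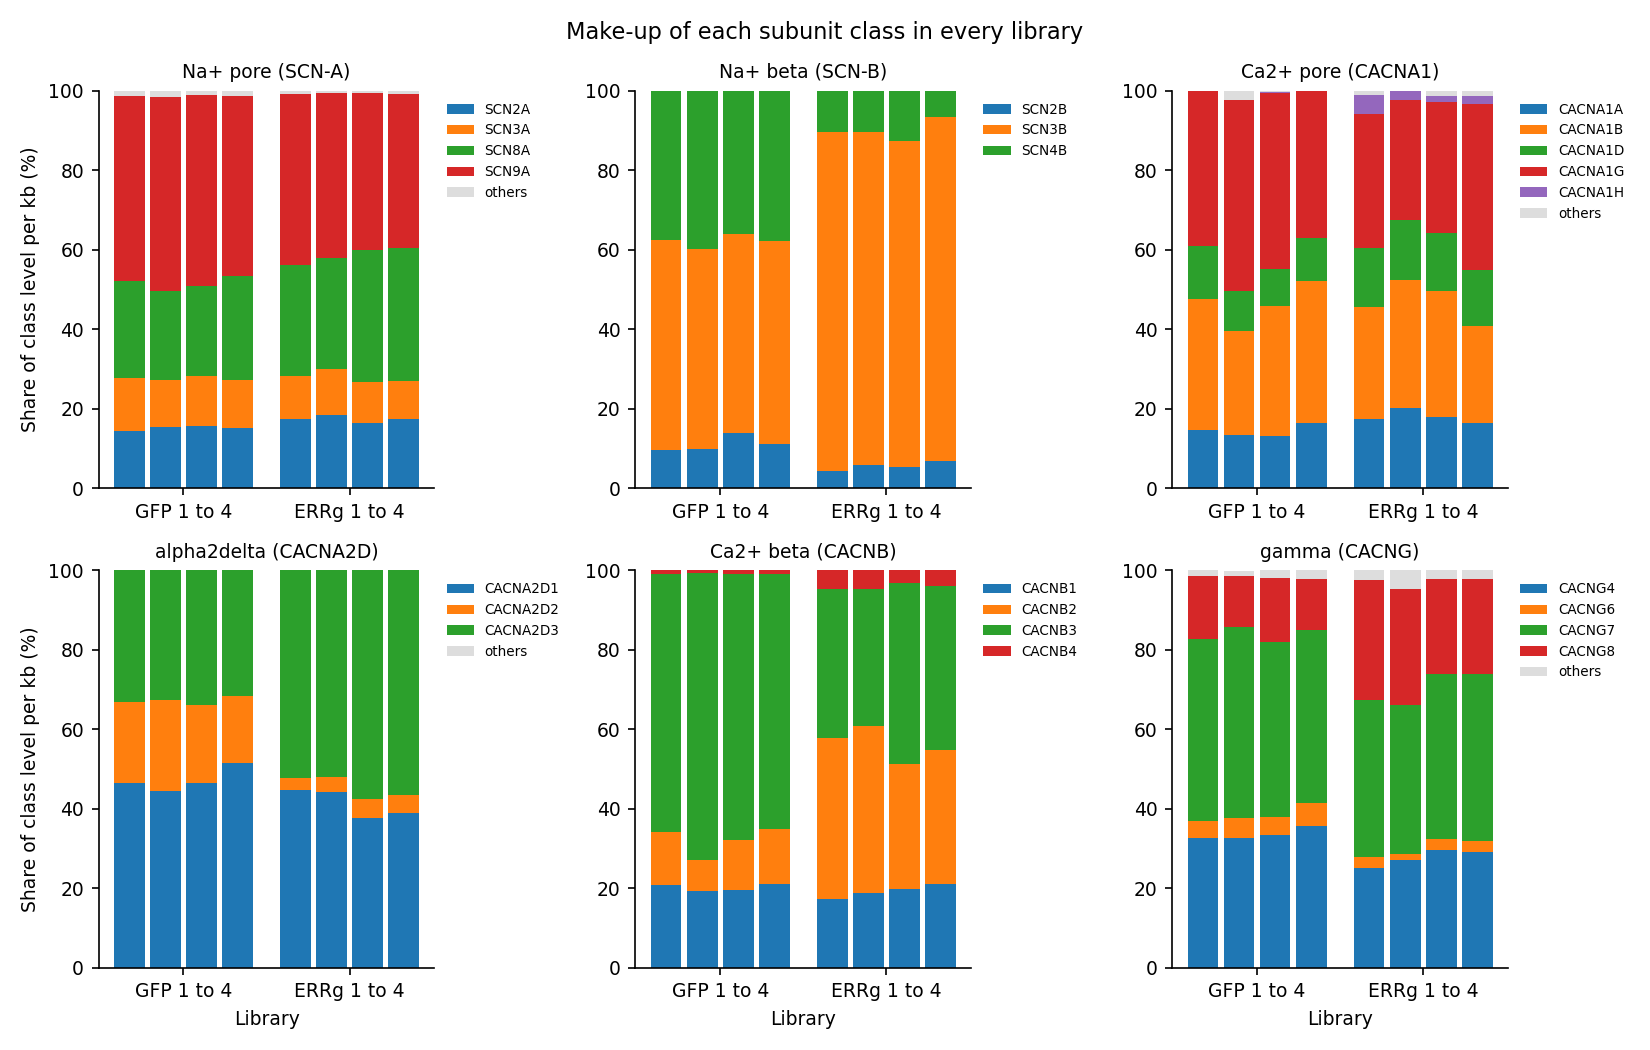
Share of each gene in the summed level per kb of exon of its subunit class (vertical axis, %), as stacked bars for GFP replicates 1 to 4 and ERRg replicates 1 to 4, with genes under 2% in both groups in grey. CACNA2D3, CACNB2 and SCN3B take larger shares in the ERRg libraries, and CACNA2D2, CACNB3 and SCN4B smaller ones.

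Genes that work with these channels were read from lists of partners. Of 13 tested sodium channel partners and anchoring proteins, 5 rose and 5 fell (median 0.01), against 3 and 5 in the offset fit (median -0.06). The 3 with the smallest p were PRRT2 (log2 fold change -0.99, edgeR adjusted p = 6.99e-06, and 0.19 with the offsets, adjusted p = 0.256), the ubiquitin ligase NEDD4 (log2 fold change 0.69, edgeR adjusted p = 7.05e-06, and 0.00 with the offsets, adjusted p = 0.982) and the ankyrin ANK2, a membrane adaptor (log2 fold change 0.55, edgeR adjusted p = 1.77e-05, and 0.22 with the offsets, adjusted p = 0.00254). Of these, ANK2 was called in both fits. Of 17 tested calcium channel regulators and active-zone partners, 2 rose and 11 fell (median -0.58), against 4 and 8 in the offset fit (median -0.28). RIMS4, a RIM protein (log2 fold change -2.36, edgeR adjusted p = 2.62e-12, and -1.53 with the offsets, adjusted p = 3.09e-12), the calmodulin gene CALM3 (log2 fold change -1.32, edgeR adjusted p = 5.88e-10, and -0.37 with the offsets, adjusted p = 7.82e-07) and DPYSL2, which encodes CRMP2, a binding partner of N-type channels (log2 fold change -1.0, edgeR adjusted p = 1.07e-08, and -0.70 with the offsets, adjusted p = 3.89e-09), were called lower in both fits. RIMS4 averaged 31.8 ± 2.32 CPM in GFP and 6.21 ± 0.835 CPM in ERRg (SD, n = 4 each), without overlap.

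In the sodium leak channel complex, 1 of 4 tested genes rose and 1 fell (median -0.11), against 1 and 2 in the offset fit (median -0.22). NALCN, its pore, fell in both fits (log2 fold change -0.45, edgeR adjusted p = 0.00557, and -0.75 with the offsets, adjusted p = 6.69e-06), while its subunit genes NALF1 (log2 fold change 0.58, edgeR adjusted p = 3.84e-05, and -0.12 with the offsets, adjusted p = 0.0755) and UNC80 (log2 fold change -0.09, edgeR adjusted p = 0.367, and -0.32 with the offsets, adjusted p = 2.35e-04) were each called in 1 fit. The NALCN call with TMM alone was lost with upper-quartile factors (-0.15, adjusted p = 0.337) and library totals (-0.05, adjusted p = 0.757), and with library totals UNC80 was called higher (0.31, adjusted p = 0.00735). UNC79 was listed at 0, which may not mean that its RNA is absent. The repressor REST, which binds many neuronal channel genes including SCN2A, rose (log2 fold change 0.62, edgeR adjusted p = 7.59e-06, and 0.17 with the offsets, adjusted p = 0.00588). Of its corepressors RCOR3 rose (log2 fold change 0.71, edgeR adjusted p = 4.43e-07, and 0.15 with the offsets, adjusted p = 0.0152), RCOR2 fell (log2 fold change -1.74, edgeR adjusted p = 6.81e-08, and -0.47 with the offsets, adjusted p = 0.0107) and RCOR1 was called in neither fit. Of 21 genes for calcium release, store-operated entry and extrusion, 6 rose and 11 fell (median -0.32), against 7 and 9 in the offset fit (median -0.21). The store-operated channel ORAI2 (log2 fold change -1.73, edgeR adjusted p = 9.42e-11, and -1.02 with the offsets, adjusted p = 1.33e-11) and the store sensor STIM1 (log2 fold change -1.12, edgeR adjusted p = 6.77e-09, and -0.57 with the offsets, adjusted p = 8.60e-08) fell in both fits, and the calcium release channel ITPR2 rose in both (log2 fold change 1.05, edgeR adjusted p = 1.52e-08, and 0.46 with the offsets, adjusted p = 1.02e-06). These lists hold coding genes, of which 29.0% were higher and 50.6% lower with TMM alone and 30.7% and 41.4% with the offsets.

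Promoter windows of the members were searched for the response element of estrogen-related receptors. RefSeq windows were found for 26 of the 38 members, 40 windows in all. The extended half-site TCAAGGTCA, searched on both strands, was in 0.353% of all 35116 windows and in 0 member windows. The looser TNAAGGTCA (0.951% of all windows) and AAGGTCA (3.92%) were in 0 member windows as well. The core AGGTCA, which is part of each of the others, was in 13.8% of all windows and in 3 member windows, of CACNA1D, SCN1A and SCN7A. The CACNA1D window is shown because it is the only one of the 3 whose gene was tested, at chr3:53494361-53494660 on the plus strand, with AGGTCA in capitals.
CACNA1D: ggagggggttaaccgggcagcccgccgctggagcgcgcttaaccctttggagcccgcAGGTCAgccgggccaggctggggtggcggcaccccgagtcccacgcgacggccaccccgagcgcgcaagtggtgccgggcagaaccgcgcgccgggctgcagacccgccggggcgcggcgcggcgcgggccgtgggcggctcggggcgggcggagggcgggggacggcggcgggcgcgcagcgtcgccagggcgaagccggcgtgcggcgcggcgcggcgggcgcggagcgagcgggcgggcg
CACNA1D was called in neither fit. A match is a string of letters and no binding was measured here.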

How the data were processed

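RNA was measured in 8 libraries, 4 per group. Libraries were directional and ribosomal RNA had been removed, per the labels' protocols. The deposited values are raw read counts for each gene, in 1 table. The authors named STAR 2.7.8a, HTSeq 0.11.3, Trim Galore 0.6.6, DESeq2 and CASAVA, and the build GRCh38, per the submitters' processing notes. Annotation release and strand setting were not stated there. The 5 summary lines that name no gene held 41.8% to 59.3% of all reads per library and entered neither library sizes nor tests.

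Identifiers were matched to a name table (60463 of 67060) and to GENCODE release 29 on GRCh38 (58488), which gave gene types, positions, GC content and lengths. Counts were compared with edgeR 4.0.16 in R 4.3.3 (TMM, filterByExpr, quasi-likelihood test, group as sole term, two-sided, Benjamini-Hochberg adjusted p under 0.05 over 21993 genes). Offsets were natural splines (5 degrees of freedom) of log counts (prior count 2) on GC content, log length and log span, fitted per library over coding genes. Scripts were tested on simulated data in which few genes changed, as many up as down, or a GC trend was planted and no gene changed. Such data do not test the scaling where most genes are called, as here. Levels per kilobase divide CPM by the length of all annotated exon bases, and SDs are over 4 libraries. Shared reads between paralogs, or between overlapping genes, are uncertain. Intervals and the floor of 3 reads cover counting error only. In 48 sets of 4 libraries (each tested gene in each group) Dixon's test found 0 outliers, where chance gives about 1 in 20.

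Alternatives were DESeq2 size factors and Wald test (DESeq2 1.42.0), limma-voom (limma 3.58.1), upper-quartile factors, library totals, other filters, coding genes alone, the offsets, a replicate block, the share of reads outside exons as covariate, a test of changes beyond 1 on the log2 scale, and each library left out. Results for 2 members and 1 partner gene are not reported here. Every other member is accounted for, members averaging at least 1 CPM in a group with each library's value. In partner lists the 3 genes with the smallest p could be named; RCOR1 and UNC79 and genes within members' spans were named after their values were seen. Members and lists were chosen with earlier results of these data known.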

Additional observations from a re-analysis of the deposited data

How the results depend on the processing

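The counts of channel genes kept their direction and stayed within 1.5 times under DESeq2 size factors, the DESeq2 Wald test, limma-voom, the low-count filters, an adjusted p under 0.01, fits that dropped the mitochondrially encoded genes or dropped ESRRG, and each library left out in turn. Without the low-count filter 8 members were higher and 13 lower, with CACNA1H and SCN7A added. Of all 41858 genes in that fit 9166 were higher and 8584 lower. At an adjusted p under 0.01 CACNA1A and CACNG8 were no longer called, and other lost calls are given beside the genes. With a filter of at least 1 CPM in 4 libraries SCN9A was called higher (0.21, adjusted p = 0.0394). With library totals 1 pore-forming gene was lower, against 3 with TMM, beside 35.8% and 50.6% of coding genes. Upper-quartile factors, library totals and TMM on coding genes alone each gave 4 of 9 tested pore-forming genes higher, against 2. Beside these stood 40.1%, 43.6% and 5474 of 13433 coding genes higher, against 29.0%. In the test against a log2 fold change of 1, 2 channel genes were higher and 6 lower, all of them auxiliary, with 0 pore-forming genes in either direction. With the share of reads outside exons as a covariate, edgeR called 0 channel genes higher and 0 lower (1 and 1 at an unadjusted p under 0.05), and so 0 pore-forming and 0 auxiliary genes in either direction. That fit called 6 of all genes higher and 2 lower, and the covariate and the group nearly coincide.

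Fold changes that turned sign are given as log2 values, against those with TMM alone in the report. With library totals they were CACNA1A 0.10, CACNA1D 0.19, CACNG2 0.12, CACNG8 0.15 and SCN11A 0.13. With upper-quartile factors they were CACNA1D 0.09, CACNG2 0.02, CACNG8 0.05 and SCN11A 0.02, and with coding genes alone CACNA1A 0.01, CACNA1D 0.10, CACNG2 0.03, CACNG8 0.06 and SCN11A 0.03. With an offset for GC content alone they were CACNA1A 0.68, CACNA1B 0.20, CACNA1D 0.06, CACNA1G 0.15, CACNA2D1 -0.18, CACNB1 0.29, CACNG2 0.19, CACNG8 0.58, SCN2A -0.02, SCN3A -0.37 and SCN9A -0.39. With the 3 offsets of the second fit they were CACNA1A 0.26, CACNA2D1 -0.42, CACNB1 0.23, CACNG2 0.05, CACNG8 0.46, SCN2A -0.31, SCN3A -0.54 and SCN9A -0.62. With the covariate, where no member was called, they were CACNA1G 0.74, CACNA2D1 -0.59, CACNB2 -1.07, CACNB4 -0.24, CACNG2 0.56, SCN11A 0.05, SCN3A -0.90, SCN8A -0.03 and SCN9A -0.26. SCN3A ranged from -0.02 to 0.13 with each library left out in turn and was below 0 without GFP replicate 2 or ERRg replicate 2. The turned values rest on other offsets, factors or terms, and the cause was not tested.

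Same-numbered libraries did not stand out as pairs. They correlated in their deviations at 0.088, -0.158, -0.08 and -0.052 and did not each correlate best with their own number. With 4 libraries per group, this cannot exclude that equal numbers shared a culture or day. With the replicate number as a block 7 members were higher and 11 lower, beside 3642 and 6597 of 13433 coding genes. CACNG8 was no longer called (edgeR adjusted p = 0.0573), and this block changed no other member's call. With the block and the offsets together 8 members were higher and 10 lower, beside 3985 and 5388 of 13413 coding genes. The turned values were then CACNA1A 0.26, CACNA2D1 -0.42, CACNB1 0.22, CACNG2 0.05, CACNG8 0.46, SCN2A -0.31, SCN3A -0.54 and SCN9A -0.62.

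The level per kilobase moved most with the length used, and with the longest transcript CACNA1A was at 1.30 CPM per kb in GFP, against 0.261, and CACNB4 at 0.358, against 0.0849. Members at or near 1 CPM (SCN11A and CACNG2 in both groups, and SCN2B, SCN4B and CACNG6 in ERRg) rest on few reads, and their fold changes carry the 5 largest standard errors with TMM alone (0.20 to 0.30).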

Other observations

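Other genes within the spans of members also differed between the groups. In the span of CACNA2D1, the antisense RNA CACNA2D1-AS1 had a log2 fold change of 1.06 (SE 0.27, edgeR adjusted p = 0.0015). In the span of CACNB2, 3 non-coding genes on the opposite strand had log2 fold changes of 1.04, 1.43 and 1.79. In the span of SCN8A, the pseudogene HNRNPA3P10 had a log2 fold change of 1.68 (SE 0.35, edgeR adjusted p = 2.07e-04), at 0.348 CPM in GFP and 1.12 CPM in ERRg. In the span of CACNA1D, the small nucleolar RNA gene SNORD38C had 1.99 (SE 0.42, edgeR adjusted p = 2.75e-04), while CACNA1D itself was not called. CHDH, a choline dehydrogenase gene that overlaps the end of CACNA1D, fell (-0.81, SE 0.13, edgeR adjusted p = 8.02e-06), and DCP1A, which overlaps its start, did not pass the test (0.07, adjusted p = 0.51). An antisense gene within CACNG4 (ENSG00000264491) did not pass the test either (-0.52, SE 0.32, edgeR adjusted p = 0.149). Reads outside exons, which were more frequent in ERRg, could be counted in such genes, and their part in these values was not tested.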
